A study of Homo sapiens with 8 samples.

Results

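The genes described here are the protein-coding genes of the short arm of human chromosome 17 that start within the first 22 Mb of the chromosome (hg38) and had 50 or more counts summed over the 8 RNA-seq libraries of the series. Of 344 protein-coding genes inside that bound, 59 had 0 counts, 70 had 1 to 49 counts and 215 reached 50. AURKB, XAF1, PER1 and ALDH3A2 and the ribosomal protein gene RPL26 were set aside by name or family, which left 210 members among 12465 protein-coding genes with 50 or more counts in the whole table. The members were chosen by their RNA levels and position: the region was selected on its genes standing higher in ITGB4-low than in ITGB4-high cells in these same libraries. Values of that comparison are therefore a description. Where edgeR calls are counted in it, they stand beside the share over all genes and nothing is read from them. Of the 210 members, 208 passed the filter on low counts and were tested, and C17orf49 and TMEM256-PLSCR3 did not pass it.

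All libraries came from SUM159, a widely used human cell line of triple-negative breast cancer, and polyadenylated RNA was sequenced. The lung-recovered group (3 libraries) held ITGB4-low clone 1 cells that had been given to mice by tail vein. Bleomycin, an antitumour glycopeptide that breaks DNA and is used to model lung injury, was instilled into the trachea of these mice. At the end point the lungs were made into a cell suspension, which stayed in a dish overnight before tumour cells were sorted by their red tdTomato fluorescence. The ITGB4-low group (3 libraries) held clone 1 cells grown in dishes and the ITGB4-high group (2 libraries) held ITGB4-high cells grown in dishes. ITGB4 encodes an integrin beta subunit of hemidesmosomes, which anchor epithelial cells to the basement membrane. Both ITGB4-low and lung-recovered libraries stem from 1 clone, and features peculiar to it cannot be told apart from those of ITGB4-low cells in general. The labels speak of biological replicates and name no cultures or animals, so p-values measure only the spread between these samples.

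The short arm of chromosome 17 is a gene-dense arm that carries several growth regulators, among them the stress kinase gene MAP2K4, the corepressor gene NCOR1 and FLCN, the gene of Birt-Hogg-Dubé syndrome. It also holds many genes that nearly every cell needs, such as those of the largest subunit of RNA polymerase II, a core splicing factor and the actin-binding protein profilin. The genes of such an arm belong to many pathways and share only their place on the chromosome.

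Library totals ran from 20.41 to 27.22 M counts, 15220 genes were tested and the filter on low counts kept 99.931% of all counts. ITGB4 had 401, 375.5 and 407 CPM in lung-recovered libraries, 5.29, 7.46 and 9.13 CPM in ITGB4-low libraries and 419.9 and 376 CPM in ITGB4-high libraries, as the labels of the dish-grown groups have it. CPM is the count scaled to library size after TMM normalisation. Most of the line's markers followed its type: VIM averaged 4377 CPM in lung-recovered, 4561 CPM in ITGB4-low and 4828 CPM in ITGB4-high libraries, while CDH1 and PGR had 0 counts in all 8 libraries. ERBB2, listed beforehand as absent or low, averaged 67.3, 66.4 and 67.5 CPM in lung-recovered, ITGB4-low and ITGB4-high libraries. Of 18 markers of host lung cells, 6 to 8 were at 0 in each lung-recovered library, 6 to 8 in each ITGB4-low library and 6 to 9 in each ITGB4-high library. Their summed level was 116 to 126.6 CPM in lung-recovered, 45.7 to 53.7 CPM in ITGB4-low and 37.0 to 41.7 CPM in ITGB4-high libraries. Most of this sum was COL1A1, at 101, 30.7 and 28.1 CPM on average in these 3 groups. HBA1, HBB and SCGB1A1 were at 0 in all 8 libraries, and SFTPB, SFTPC and CDH5 had at most 1 count in a group. LYZ and VWF had 0 counts in lung-recovered and 3 and 8 in ITGB4-low libraries. MARCO averaged 1.46, 0.788 and 0.725 CPM in lung-recovered, ITGB4-low and ITGB4-high libraries. Its log2 fold change over ITGB4-low was 0.88 (edgeR adjusted p = 0.0271). In the same order PECAM1 averaged 0.373, 0.139 and 0.0773 CPM and PTPRC 0.781, 0.864 and 0 CPM. These markers are human genes counted from reads aligned to hg38, whereas the hosts were mice. Low counts therefore cannot show that mouse cells were absent, and the part of host cells was not tested.

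Promoters are shown for 4 members with unlike values: PFN1, one of the most abundant members and higher in both groups of clone 1 cells, MNT, which differed little, WSCD1, with a very large one, and MED9, which rose in lung-recovered cells. Each runs from 250 bases before to 50 bases after the RefSeq start (RefSeq, GRCh38.p14), 5′ to 3′ on the gene's strand, and 166 of the 210 members were found in that promoter table. Capitals mark the GC box GGGCGG or its reverse complement CCGCCC. PFN1 lies at chr17:4948481-4948780, minus strand, MNT at chr17:2401011-2401310, minus strand, WSCD1 at chr17:6068866-6069165, plus strand and MED9 at chr17:17476750-17477049, plus strand.
PFN1: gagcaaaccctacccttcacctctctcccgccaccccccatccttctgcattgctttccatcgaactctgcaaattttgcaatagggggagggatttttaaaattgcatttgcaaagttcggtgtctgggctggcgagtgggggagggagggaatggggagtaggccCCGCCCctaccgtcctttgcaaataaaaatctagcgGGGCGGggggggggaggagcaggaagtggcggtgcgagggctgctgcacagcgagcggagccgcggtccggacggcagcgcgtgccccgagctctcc
MNT: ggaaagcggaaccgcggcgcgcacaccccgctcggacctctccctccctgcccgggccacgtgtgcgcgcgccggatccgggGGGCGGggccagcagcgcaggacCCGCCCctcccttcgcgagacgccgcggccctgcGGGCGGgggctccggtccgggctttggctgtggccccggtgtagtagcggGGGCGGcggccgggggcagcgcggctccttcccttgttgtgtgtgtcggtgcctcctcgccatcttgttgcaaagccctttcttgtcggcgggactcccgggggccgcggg
WSCD1: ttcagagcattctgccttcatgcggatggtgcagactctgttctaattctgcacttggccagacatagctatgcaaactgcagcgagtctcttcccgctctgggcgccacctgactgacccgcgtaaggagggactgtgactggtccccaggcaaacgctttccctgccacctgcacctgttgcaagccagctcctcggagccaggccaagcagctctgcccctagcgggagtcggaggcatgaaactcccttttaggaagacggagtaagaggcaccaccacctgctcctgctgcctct
MED9: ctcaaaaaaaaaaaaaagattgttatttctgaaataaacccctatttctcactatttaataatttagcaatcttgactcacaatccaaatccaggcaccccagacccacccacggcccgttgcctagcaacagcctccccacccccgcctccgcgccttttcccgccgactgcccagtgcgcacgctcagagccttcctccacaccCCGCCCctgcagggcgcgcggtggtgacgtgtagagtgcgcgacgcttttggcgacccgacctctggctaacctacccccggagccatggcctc

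The GC box occurred 2 times in the PFN1 window, 4 times in that of MNT, 0 times in that of WSCD1 and 1 time in that of MED9. These windows held 19, 40, 11 and 20 CG dinucleotides. Over the 166 member promoters, 76.5% held GGGCGG on either strand, against 70.6% of 9902 promoters of protein-coding genes with 50 or more counts and 44.6% of all 27305 promoters. The TATA box core TATAAA was found on either strand in 1.81% of member promoters, 5.49% of those of expressed genes and 12.0% of all. The AP-1 site TGACTCA was found in 4.22, 3.06 and 4.92% of these sets and CCAAT in 34.3, 36.9 and 35.7%. The motifs do not overlap one another. The median number of CG dinucleotides per window was 27 in members and 26 in expressed protein-coding genes. Such matches describe the letters of these windows, not binding.

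Set beside ITGB4-high cells, both groups of clone 1 cells had more RNA from nearly the whole arm. The members took 1.42, 1.45 and 1.43% of all protein-coding counts in the lung-recovered libraries, 1.43, 1.41 and 1.40% in the ITGB4-low libraries, and 0.814 and 0.798% in the ITGB4-high libraries. The means were 1.43 ± 0.0126% (SD, n = 3), 1.41 ± 0.0145% (SD, n = 3) and 0.806 ± 0.0113% (SD, n = 2), so both clone 1 groups lay above ITGB4-high with no overlap and overlapped each other. The other protein-coding genes of chromosome 17 took 4.41% in lung-recovered, 4.26% in ITGB4-low and 4.74% in ITGB4-high libraries on average. Only RNA was measured, and in bulk samples a change in the number of cells of a kind and in the RNA per cell cannot be told apart.

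The typical member differed by less than 2-fold. Its log2 ratio to the mean of the ITGB4-high libraries, computed on CPM + 0.5, had a median over members of 0.76, 0.77 and 0.81 in the lung-recovered libraries, 0.72, 0.74 and 0.73 in the ITGB4-low libraries, and 0.01 and -0.01 in the ITGB4-high libraries. In the rest of chromosome 17 the same median was -0.06, -0.06 and -0.08 in lung-recovered, -0.10, -0.10 and -0.11 in ITGB4-low, and 0.01 and -0.01 in ITGB4-high libraries. Every clone 1 library thus stood above both ITGB4-high libraries for the members and below them for the rest of the chromosome.

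**Figure D1:**
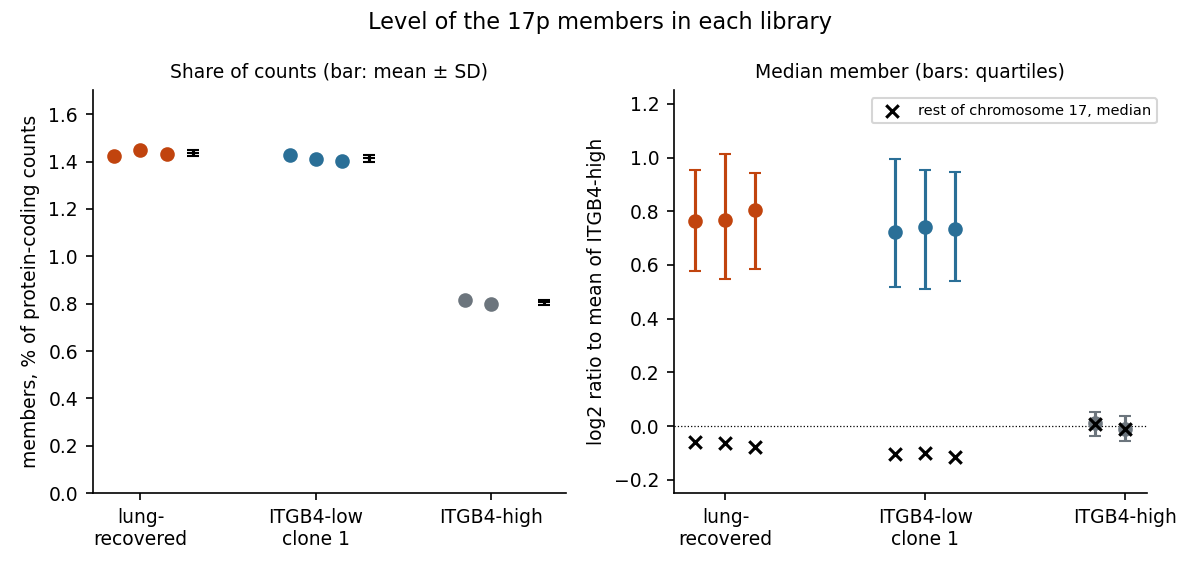
Left, share of all protein-coding counts taken by the members in each library, in percent, with the mean ± SD of each group. Right, median log2 ratio of the members to the mean of ITGB4-high libraries, with bars from the lower to the upper quartile, and crosses for the rest of chromosome 17. The lung-recovered libraries (1.42 to 1.45%) and ITGB4-low libraries (1.40 to 1.43%) lie above the ITGB4-high libraries (0.798 and 0.814%).

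Gene by gene, 179 of the 208 tested members were called higher in ITGB4-low than in ITGB4-high cells at an edgeR adjusted p under 0.05, 3 were called lower and 26 were not called, where 28.6% of all tested genes were called higher and 27.6% lower (56.2% either way). Since this comparison chose the region, nothing is read from that count. The members' median log2 fold change was 0.77 (quartiles 0.60 and 1.01), a fold of 1.71, against -0.10 in the 542 other tested protein-coding genes of chromosome 17 and 0.00 over all genes. A log2 fold change between 0.5 and 1 was found for 113 members (54.3%) and for 9.48% of all genes. Beyond that band, 45 members lay above 1 and up to 2, 11 lay above 2, 28 lay from 0 to under 0.5, and 11 lay below 0. The 61 members with a mean of 50 CPM or more were all above 0, from 0.06 to 1.33 (median 0.73), and the 59 members under 10 CPM spread more widely, from -2.28 to 6.06 (median 0.70). The median was 0.76 over the 96 tested members on the plus strand and 0.78 over the 112 on the minus strand.

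Lung-recovered cells, set against the same ITGB4-high libraries, had 187 members called higher and 0 lower in edgeR (lower at an unadjusted p under 0.05, 0, and 0 in both DESeq2 and limma-voom), where 26.2% of all genes were called higher and 25% lower (51.2% either way). The log2 fold change was above 0 for 205 of 208 members. The median log2 fold change was 0.81, against -0.06 in the rest of chromosome 17. The region was selected on standing above these ITGB4-high libraries, so this count carries that selection and nothing is read from it. Both comparisons share the ITGB4-high libraries, so their values are set side by side and were not tested against each other.

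The difference from ITGB4-high spanned the arm. In 2 Mb windows from the end of the short arm, the median log2 fold change of ITGB4-low over ITGB4-high was 0.81 in the first window (26 members), lay between 0.74 and 0.76 in the next 4 windows, and had its lowest value of 0.68 between 18 and 20 Mb (19 members). It was 0.83 between 10 and 12 Mb and 1.27 between 12 and 14 Mb, windows of 4 members each, and 0.96 in the last window (7 members, 20 to 22 Mb). Past the centromere the first 3 tested genes, between 26 and 28 Mb, had a median of 0.26, and the next 38 genes, between 28 and 30 Mb, had -0.20. No 2 Mb window of the rest of the chromosome had a median above 0.26.

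The members just inside the bound were NATD1 (starting at 21238870), MAP2K3 (21284672) and C17orf51 (21428381), with log2 fold changes of 1.34, 0.85 and 1.41 for ITGB4-low over ITGB4-high. The first genes with 50 or more counts outside it were WSB1 (27294076), KSR1 (27456470) and LYRM9 (27878314), with 0.02, 1.22 and 0.26. Members just above the count minimum were AC007846.2 (55 counts), C17orf49 (55) and DRC3 (56), while SERPINF2 (40), SENP3-EIF4A1 (44) and LRRC75A (47) fell just short. The genome was cut into 166 windows of 10 Mb with 30 or more tested protein-coding genes of 50 or more counts. The 2 windows with the highest medians were the first (0.76) and second (0.77) of chromosome 17, which include the genes set aside here. The highest value elsewhere was 0.40 and the lowest anywhere was -0.51. This comparison chose the region, so the rank of its windows carries that selection and nothing is read from it. In the region itself, 38 tested noncoding genes had a median of 0.63.

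**Figure D2:**
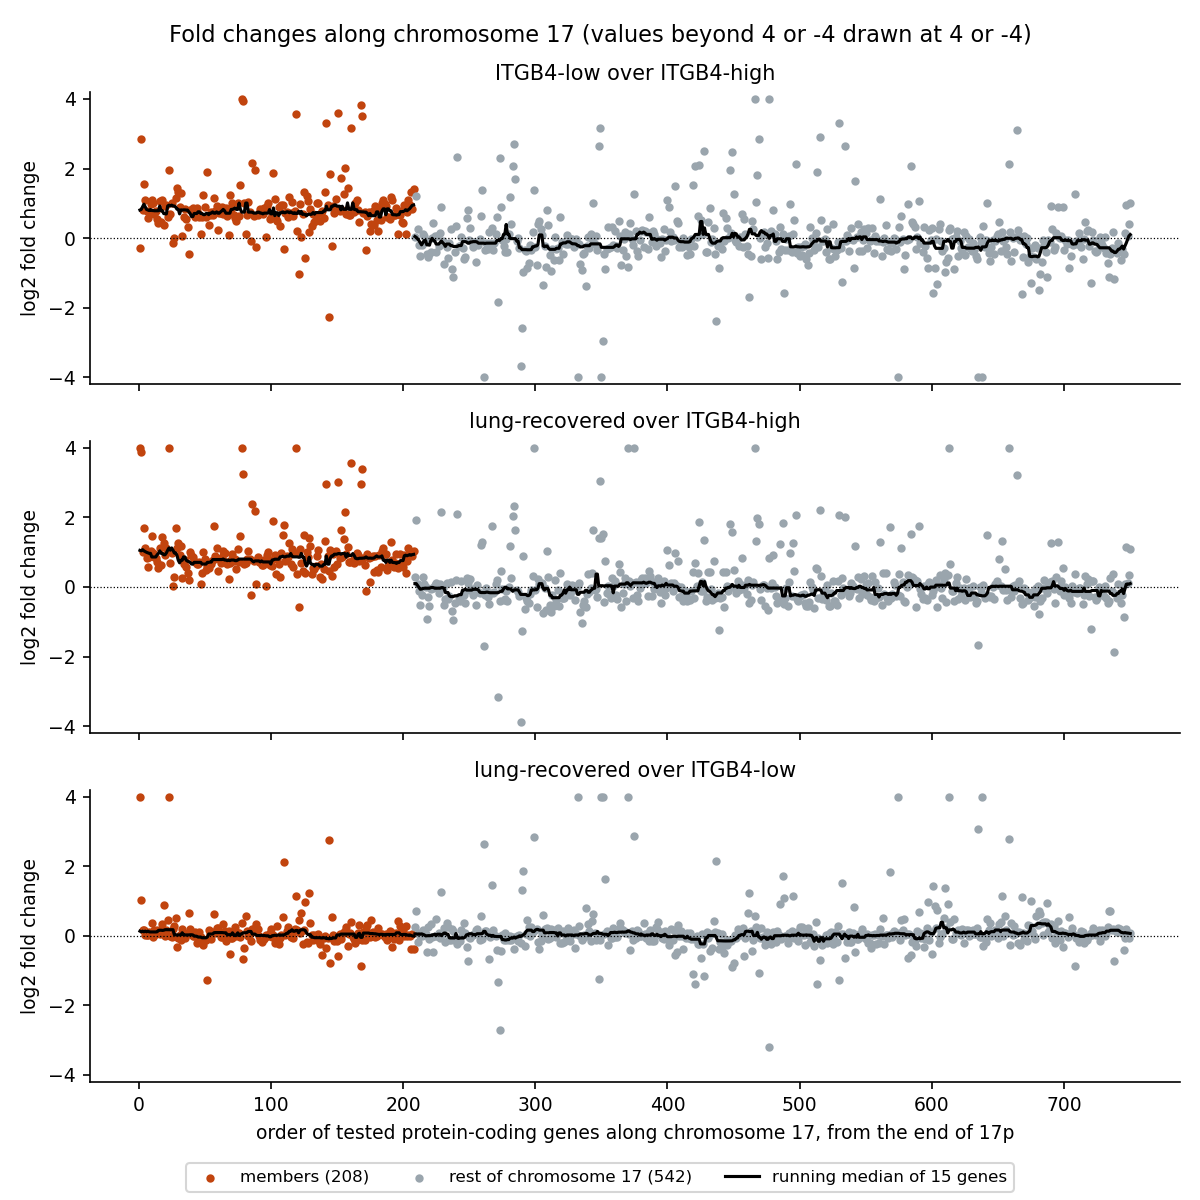
Log2 fold change of each tested protein-coding gene in its order along chromosome 17, members in red and the rest in grey, with a running median of 15 genes as the black line. In both upper panels the members' medians (0.77 and 0.81) lie above 0 from the arm's end to its last member, and the rest of the chromosome has medians of -0.10 and -0.06. In the bottom panel the members have a median of 0.04.

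The same modest difference appeared in abundant genes of unlike function. PFN1 (ENSG00000108518, 4945652 to 4949061, minus strand) encodes profilin, which delivers actin monomers to growing filaments. It had 1068, 1125 and 1081 CPM in the lung-recovered libraries, 1118, 1118 and 1105 CPM in ITGB4-low libraries and 628 and 577 CPM in ITGB4-high libraries. EIF5A (ENSG00000132507, 7306999 to 7312463, plus strand), a translation factor that carries the modified amino acid hypusine, had 1202, 1259.9 and 1164 CPM in the lung-recovered libraries, 1202, 1225 and 1185 CPM in ITGB4-low libraries and 643 and 633 CPM in ITGB4-high libraries. In both genes every clone 1 library lay above both ITGB4-high libraries, and lung-recovered and ITGB4-low libraries overlapped, with log2 fold changes over ITGB4-high of 0.86 and 0.89 for PFN1 and 0.92 and 0.92 for EIF5A. Per kb of exon, PFN1 was the most abundant member, at 549 CPM per kb in the lung-recovered libraries, 561 in the ITGB4-low libraries and 303 in the ITGB4-high libraries.

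Other members followed the same course. YWHAE, a 14-3-3 adaptor that binds phosphorylated proteins, had 708, 734 and 702 CPM in the lung-recovered libraries, 676, 708 and 704 CPM in ITGB4-low libraries and 407 and 400.4 CPM in ITGB4-high libraries. PRPF8, the core protein of the spliceosome's active site, had 529, 556 and 521 CPM in the lung-recovered libraries, 546, 516 and 543 CPM in ITGB4-low libraries and 293 and 271 CPM in ITGB4-high libraries. RPA1 (ENSG00000132383, 1829702 to 1900082, plus strand), the large subunit of the protein that coats single-stranded DNA in replication and repair, had 168, 189 and 172 CPM in the lung-recovered libraries, 179, 177 and 181 CPM in ITGB4-low libraries and 91.8 and 87.3 CPM in ITGB4-high libraries. All 3 genes separated the clone 1 libraries from the ITGB4-high ones and did not separate the lung-recovered from the ITGB4-low libraries.

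POLR2A, the largest subunit of RNA polymerase II, had a log2 fold change over ITGB4-high of 0.96 in lung-recovered and 0.94 in ITGB4-low cells. The values were 0.89 and 0.93 for SREBF1, a transcription factor of lipid synthesis, 0.76 and 0.76 for USP22, the deubiquitinase of the SAGA complex, and 0.88 and 0.79 for PSMB6, a catalytic subunit of the proteasome. For MYH10, the heavy chain of nonmuscle myosin IIB, they were larger, at 1.31 and 1.33.

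Among the growth regulators, MAP2K4, which activates JNK and p38, had 28.9, 27.1 and 27.3 CPM in the lung-recovered libraries, 30.7, 30.4 and 31.9 CPM in ITGB4-low libraries and 17.2 and 18.2 CPM in ITGB4-high libraries. The corepressor gene NCOR1 (ENSG00000141027, 16029157 to 16218185, minus strand) had 163, 159 and 163 CPM in the lung-recovered libraries, 194, 175 and 188 CPM in ITGB4-low libraries and 89 and 95.1 CPM in ITGB4-high libraries. Here all 3 groups were separate, with lung-recovered between the other groups.

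A few members differed little. DPH1, which starts diphthamide synthesis on elongation factor 2, had 34.3, 32.2 and 35.7 CPM in the lung-recovered libraries, 30.1, 27.1 and 27.2 CPM in ITGB4-low libraries and 28.4 and 27.7 CPM in ITGB4-high libraries, and its log2 fold change of ITGB4-low over ITGB4-high was 0.00. MNT (ENSG00000070444, 2384060 to 2401118, minus strand), a repressor that pairs with MAX and opposes MYC, had 67.9, 72.1 and 68.9 CPM in the lung-recovered libraries, 59.8, 60.3 and 63.7 CPM in ITGB4-low libraries and 61.2 and 56.2 CPM in ITGB4-high libraries. Its value was 0.06 in the same comparison, and FAM83G and SPECC1 had 0.12 and 0.11. DPH1 and MNT lie in the 2 to 4 Mb window, whose quartiles were 0.55 and 0.88.

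Among the 11 members below 0 in ITGB4-low over ITGB4-high, DLG4, PLD6 and USP43 are the 3 counted as lower above. DLG4, which encodes a scaffold of synapses, had 18.5, 15.9 and 16.2 CPM in the lung-recovered libraries, 11.7, 14.3 and 13.9 CPM in ITGB4-low libraries and 16.5 and 15.3 CPM in ITGB4-high libraries. PLD6, a phospholipase of the mitochondrial surface, had 12.9, 10.6 and 14.1 CPM in the lung-recovered libraries, 9.37, 11 and 11.4 CPM in ITGB4-low libraries and 14.4 and 12.8 CPM in ITGB4-high libraries. USP43, a putative deubiquitinase named after its values were seen, had under 1 CPM in every library. Neither DLG4 nor PLD6 was counted as lower without ITGB4-high replicate 1 or without ITGB4-low replicate 1, and DLG4 was not with the replicate block, in DESeq2 or with upper-quartile factors.

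**Figure D3:**
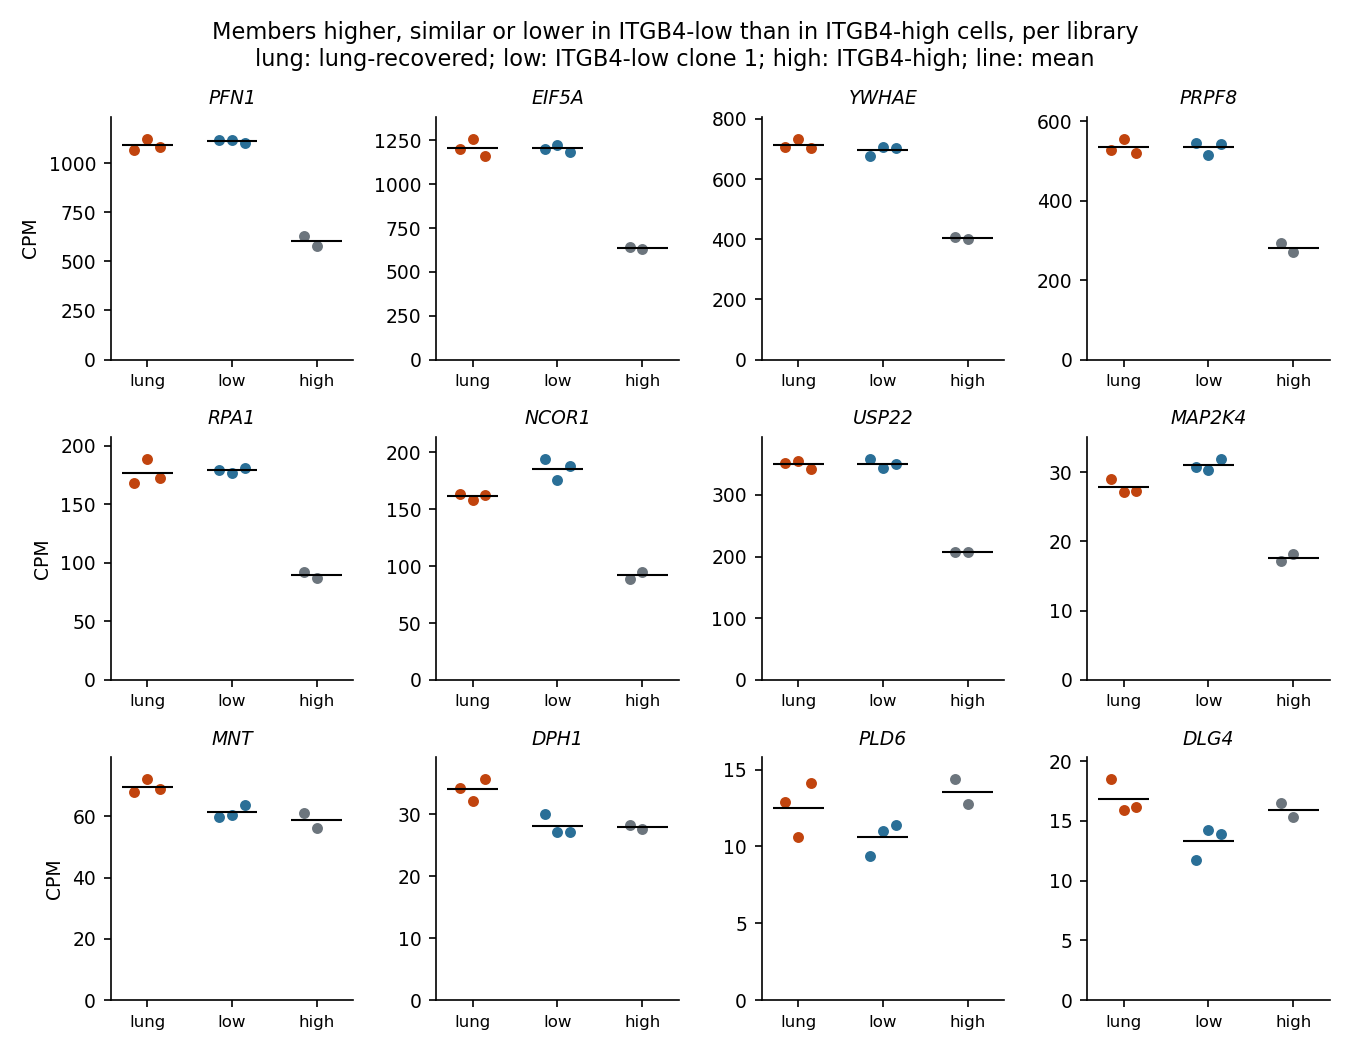
CPM of 12 members in each library, 1 point per library and a line at the group mean, for lung-recovered, ITGB4-low and ITGB4-high groups from left to right. In PFN1, EIF5A, YWHAE, PRPF8, RPA1, NCOR1, USP22 and MAP2K4 the ITGB4-high libraries lie below all others, in MNT and DPH1 the ITGB4-low and ITGB4-high libraries overlap, and in PLD6 and DLG4 the ITGB4-low libraries lie below the ITGB4-high ones.

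At the other end, several members differed far more than their neighbours. WSCD1 (ENSG00000179314, 6057807 to 6124427, plus strand), a protein of the Golgi with a sulfotransferase-like fold, had 15.7, 15.3 and 15.9 CPM in the lung-recovered libraries, 24, 23.3 and 27.1 CPM in ITGB4-low libraries and 1.66 and 1.6 CPM in ITGB4-high libraries. ARHGAP44 (ENSG00000006740, 12789539 to 12991643, plus strand), a GTPase-activating protein for Rac and Cdc42, had 14.8, 17.3 and 17.9 CPM in the lung-recovered libraries, 24.1, 24 and 26 CPM in ITGB4-low libraries and 2.11 and 1.99 CPM in ITGB4-high libraries. RPH3AL (ENSG00000181031, 212389 to 386254, minus strand), a Rab effector of regulated exocytosis, had 20.3, 20.2 and 20.6 CPM in the lung-recovered libraries, 8.99, 10.1 and 10.6 CPM in ITGB4-low libraries and 1.7 and 1.05 CPM in ITGB4-high libraries. Their log2 fold changes of ITGB4-low over ITGB4-high were 3.93, 3.59 and 2.84, and no library of either clone 1 group overlapped ITGB4-high. For WSCD1 and ARHGAP44 the rule that named them required this of the ITGB4-low libraries.

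The same value was 2.01 for PMP22, a membrane protein of peripheral myelin and other cells, 1.72 for HS3ST3A1, a heparan sulfate 3-O-sulfotransferase, 1.52 for NLRP1, an inflammasome sensor, 1.45 for SMG6, the endonuclease of nonsense-mediated decay, and 1.54 for RFLNB, a partner of filamin. ADORA2B, an adenosine receptor that raises cyclic AMP, had 11.3, 12.4 and 10.1 CPM in the lung-recovered libraries, 7.24, 9.1 and 9.21 CPM in ITGB4-low libraries and 1.06 and 0.818 CPM in ITGB4-high libraries. TRPV2, a cation channel, had 3.84 and NTN1, the guidance cue netrin-1, had 3.31, from ITGB4-high levels of 0.0754 and 0.117 CPM and 0.264 and 0.0779 CPM. Named after their values were seen, 2 members near 0 differed as well. DNAH2, an axonemal dynein, had 19 counts over the ITGB4-low libraries and 1 over the ITGB4-high libraries, a ratio of 14.8 that rests on 1 count. AC007846.2 had 23 counts in ITGB4-low and 0 in ITGB4-high libraries, at least 5.99-fold higher against a floor of 3 counts over the group. These intervals and floors cover counting error only.

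The comparison of lung-recovered with dish-grown ITGB4-low cells was not the one that chose the region, although it uses the same ITGB4-low libraries. It sets cells of 1 clone against each other after and without the bleomycin-treated lung. The members mostly stayed level: 35 were called higher, 17 lower and 156 were not called, so 25% of the members were called, against 30.1% of all genes (14.7% higher and 15.4% lower) and 35.1% of the rest of chromosome 17. By direction, 16.8% of the members were higher and 8.17% lower. The median log2 fold change was 0.04 (quartiles -0.06 and 0.17), the same as 0.04 in the rest of the chromosome and beside 0.00 over all genes. Within 0.2 of 0 lay 142 members (68.3%), against 60.0% of all genes. Of the 35 called higher, DOC2B, SERPINF1, ALOX12B and USP43 had under 50 counts without the lung-recovered libraries and had to be high there to be members, which leaves 31. Of the 52 called members, 36 changed by less than 0.5 on the log2 scale and 6 by 2-fold or more. Those 6 include DOC2B, SERPINF1, ALOX12B and USP43, and the others are RPH3AL and TNFSF13.

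By position, the counts of calls are to be read beside the shares over all genes, 14.7% higher and 15.4% lower. In the first 2 Mb, 11 of 26 members, DOC2B and SERPINF1 among them, were called higher and 0 lower in edgeR, with a median of 0.15. DESeq2 called 9 higher and limma-voom 11, both called 0 lower, and 0 were lower at an unadjusted p under 0.05. In the window between 6 and 8 Mb, 7 of 50 were called higher and 6 lower (median 0.03), near those shares. Between 8 and 10 Mb the median was -0.06, with 3 of 17 called higher and 0 lower in edgeR. ALOX12B and USP43 are among these 3 and, like DOC2B and SERPINF1, had to be high in lung-recovered cells to be members. In that window DESeq2 and limma-voom called 0 lower too, and 2 were lower at an unadjusted p under 0.05. No test compared windows with each other.

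**Figure D4:**
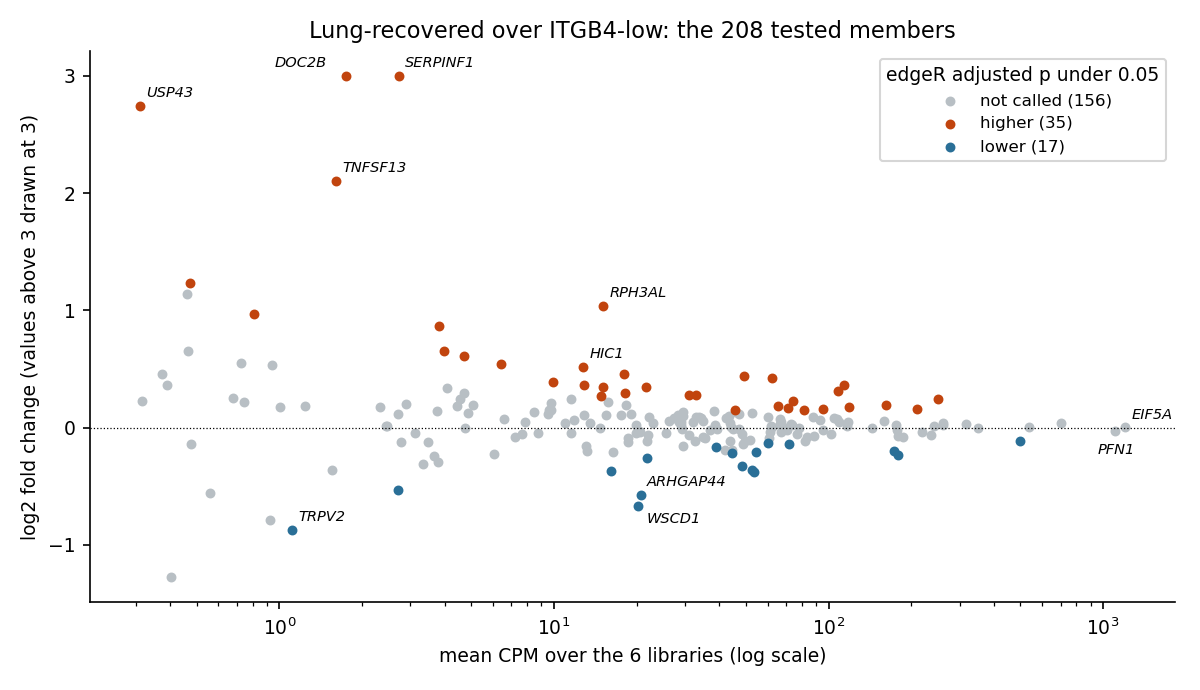
Log2 fold change of lung-recovered over ITGB4-low for the 208 tested members, against mean CPM over the 6 libraries on a log axis, coloured by call (35 higher, 17 lower, 156 not called). Abundant members lie near 0, and values above 3 (DOC2B and SERPINF1) are drawn at 3.

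The largest rise among members of 10 CPM or more was that of RPH3AL. It had 20.3, 20.2 and 20.6 CPM in the lung-recovered libraries, against 8.99, 10.1 and 10.6 CPM in the ITGB4-low libraries, with no overlap (log2 fold change 1.04, SE 0.09, adjusted p in edgeR = 3.62e-08). The rise was 2.06-fold, and the ITGB4-high libraries had 1.7 and 1.05 CPM. HIC1 (ENSG00000177374, 2054154 to 2063241, plus strand), a transcriptional repressor silenced in many tumours, had 15.2, 13.7 and 16.1 CPM in the lung-recovered libraries, against 11.9, 10.1 and 9.54 CPM in the ITGB4-low libraries, again with no overlap (log2 fold change 0.52, SE 0.10, adjusted p in edgeR = 3.88e-04). The rule for the largest rises, which picked both genes, required this lack of overlap. Of HIC1's exon bases, 29.8% overlap a gene on the opposite strand. The strand setting of the counting is not given, so HIC1's own part of these counts is uncertain.

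MED9 (ENSG00000141026, 17476986 to 17493226, plus strand), a subunit of the Mediator complex, had 20.5, 21.4 and 20.7 CPM in the lung-recovered libraries, against 15.3, 15.1 and 15.2 CPM in the ITGB4-low libraries, with no overlap (log2 fold change 0.45, SE 0.07, adjusted p in edgeR = 4.50e-05). NXN, nucleoredoxin, a thioredoxin-like regulator of Wnt signalling, had 125, 137 and 124 CPM in the lung-recovered libraries, against 101, 103 and 96.2 CPM in the ITGB4-low libraries (log2 fold change 0.36, SE 0.05, adjusted p in edgeR = 7.10e-06). WDR81, which acts in endosome maturation, had 59.4, 55.6 and 55.6 CPM in the lung-recovered libraries, against 43.2, 41.2 and 41.4 CPM in the ITGB4-low libraries (log2 fold change 0.44, SE 0.05, adjusted p in edgeR = 1.44e-06). FAM83G, an adaptor of casein kinase 1 in Wnt and BMP signalling, had 67.4, 70.8 and 75 CPM in the lung-recovered libraries, against 56, 50.7 and 52.3 CPM in the ITGB4-low libraries (log2 fold change 0.42, SE 0.05, adjusted p in edgeR = 3.29e-06). In these 4 genes the lung-recovered libraries were all higher than every ITGB4-low library, which the rule that named them required. Between ITGB4-low and ITGB4-high the log2 fold changes were 0.41 for MED9, 1.10 for NXN, 0.62 for WDR81 and 0.12 for FAM83G.

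Among the falls, WSCD1 had 15.7, 15.3 and 15.9 CPM in the lung-recovered libraries, against 24, 23.3 and 27.1 CPM in the ITGB4-low libraries, with no overlap (log2 fold change -0.67, SE 0.08, adjusted p in edgeR = 1.01e-06). ARHGAP44 had 14.8, 17.3 and 17.9 CPM in the lung-recovered libraries, against 24.1, 24 and 26 CPM in the ITGB4-low libraries, with no overlap (log2 fold change -0.57, SE 0.08, adjusted p in edgeR = 1.25e-05). The rule that named WSCD1 and ARHGAP44 required this lack of overlap. Both genes, among the members with the largest excess in ITGB4-low over ITGB4-high, thus stood between these groups in lung-recovered cells, nearer to ITGB4-low.

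PIMREG, a mitotic protein that regulates the metaphase to anaphase transition, had 44.6, 47.7 and 46.5 CPM in the lung-recovered libraries, against 53.4, 59 and 65.6 CPM in the ITGB4-low libraries (log2 fold change -0.36, SE 0.06, adjusted p in edgeR = 2.08e-04). C17orf51 fell by 0.38 on the log2 scale, NATD1 by 0.38 and CYB5D2 by 0.26, with edgeR adjusted p of 2.71e-05, 0.00426 and 0.0079. CHD3, an ATPase of the NuRD chromatin complex, had 165, 164 and 164 CPM in the lung-recovered libraries, against 198, 195 and 186 CPM in the ITGB4-low libraries (log2 fold change -0.23, SE 0.04, adjusted p in edgeR = 2.66e-04). In all these genes the lung-recovered libraries lay below every ITGB4-low library, which the rule that named them required, and above every ITGB4-high library.

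**Figure D5:**
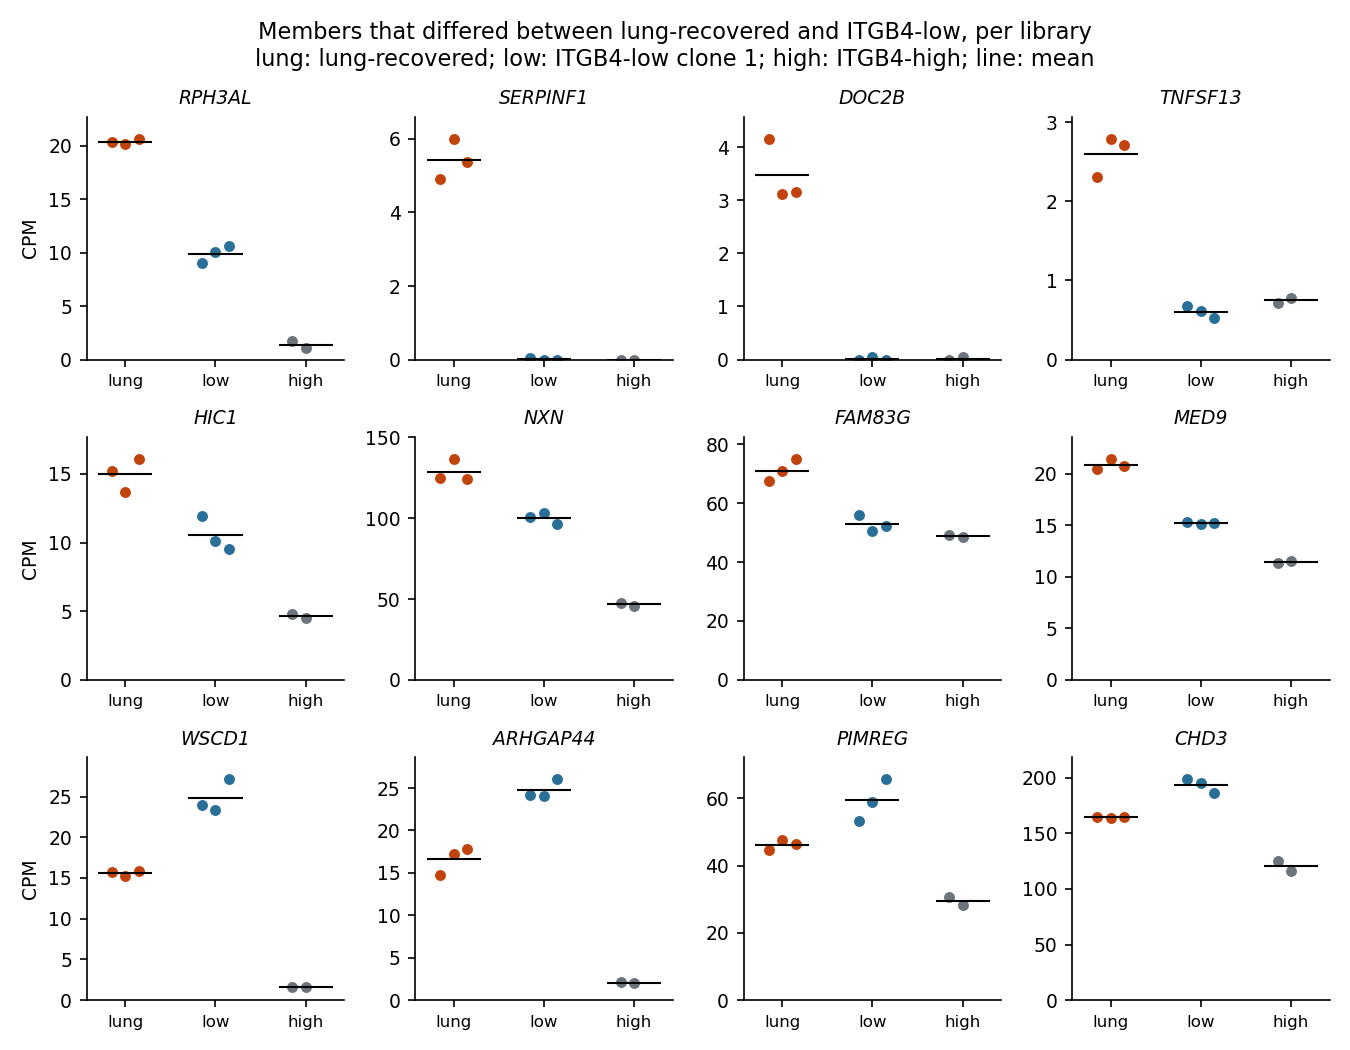
CPM of 12 members in each library, 1 point per library and a line at the group mean, with lung-recovered, ITGB4-low and ITGB4-high groups from left to right. RPH3AL, SERPINF1, DOC2B, TNFSF13, HIC1, NXN, FAM83G and MED9 are higher in lung-recovered than in ITGB4-low libraries, and WSCD1, ARHGAP44, PIMREG and CHD3 are lower, with no overlap in any of the 12. The rule for the largest rises and falls required this of all but SERPINF1, DOC2B and TNFSF13. TNFSF13 was picked for its rise, and SERPINF1 and DOC2B were named after their values were seen. The lack of overlap was thus set by the choice of genes, and nothing is read from it.

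A pair of members at or near 0 in dish-grown cells had reads in every lung-recovered library, and both are named after their values were seen. Each reached the minimum of 50 counts only through the lung-recovered libraries, so their values are given with no test. SERPINF1 (ENSG00000132386, 1761959 to 1777574, plus strand), a secreted serpin also known as pigment epithelium-derived factor, had 4.92, 6.0 and 5.38 CPM in the lung-recovered libraries, 0.0486, 0 and 0 CPM in ITGB4-low libraries and 0 and 0 CPM in ITGB4-high libraries. Over each group it had 387 counts in lung-recovered, 1 in ITGB4-low and 0 in ITGB4-high libraries. The ratio to ITGB4-low, 361, rests on 1 count there and only describes these libraries. Against a floor of 3 counts over the group, lung-recovered was at least 94.1-fold higher than ITGB4-high. SERPINF1 is also a product of fibroblasts. The fibroblast markers COL1A1 (101 CPM in lung-recovered, 30.7 CPM in ITGB4-low) and COL3A1 (1.83 CPM and 0.490 CPM) rose with it, while DCN had 2.65 CPM and 2.32 CPM and PDGFRB 10.7 CPM and 13.8 CPM in the same groups. All of these are human genes counted on hg38 while the hosts were mice, and the part of host cells in this result was not tested.

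DOC2B (ENSG00000272636, 142789 to 181636, minus strand), a calcium sensor of vesicle fusion, had 4.16, 3.12 and 3.16 CPM in the lung-recovered libraries, 0, 0.0469 and 0 CPM in ITGB4-low libraries and 0 and 0.0390 CPM in ITGB4-high libraries. Its sums were 249 counts in lung-recovered and 1 count in each of the dish-grown groups. The ratio to ITGB4-low, 232, likewise rests on 1 count and is a description only. SERPINF1, DOC2B and RPH3AL all lie in the first 2 Mb of the arm. USP43, which also needed the lung-recovered libraries to reach 50 counts, had 0.672, 0.615 and 0.338 CPM in the lung-recovered libraries, against 0, 0.234 and 0 CPM in the ITGB4-low libraries.

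By role, the counts of each list are to be read beside the shares of all genes that were called in this comparison, 14.7% higher and 15.4% lower. The surface molecules and ligands come first. Of 27 genes on a list of receptors, ligands and channels, 15 were tested members. In lung-recovered cells 4 rose, 2 fell and 9 were not called, beside 14.7 and 15.4% of all genes, with a median log2 fold change of 0.14. TNFSF13, the B-cell ligand APRIL, had 2.31, 2.79 and 2.71 CPM in the lung-recovered libraries, against 0.680, 0.610 and 0.523 CPM in the ITGB4-low libraries (log2 fold change 2.11, SE 0.24, adjusted p in edgeR = 1.12e-06). It shares 55.5% of its exon bases with other genes on its strand, so its own part of these counts is uncertain. TNFSF12, the ligand TWEAK, named after its values were seen, had 7.69, 8.23 and 6.99 CPM in the lung-recovered libraries, against 5.0, 4.92 and 5.71 CPM in the ITGB4-low libraries (log2 fold change 0.54, SE 0.12, adjusted p in edgeR = 0.00177), and CXCL16, a chemokine and scavenger receptor, had 5.76, 5.53 and 5.87 CPM in the lung-recovered libraries, against 2.62, 4.36 and 4.18 CPM in the ITGB4-low libraries (log2 fold change 0.61, SE 0.17, adjusted p in edgeR = 0.00955). Lung-recovered libraries were higher without overlap in these 3 ligand genes. TNFSF13 was picked for its rise and TNFSF12 after its values were seen, so this describes these genes only.

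ADORA2B had 11.3, 12.4 and 10.1 CPM in the lung-recovered libraries, against 7.24, 9.1 and 9.21 CPM in the ITGB4-low libraries (log2 fold change 0.39, SE 0.11, adjusted p in edgeR = 0.0129), a call lost without ITGB4-low replicate 1 (adjusted p = 0.0604) or without lung-recovered replicate 2 (0.0651). TRPV2 fell by 0.87 and the synaptic adhesion gene NLGN2 by 0.16 on the log2 scale. Both calls were lost in DESeq2 (adjusted p = 0.0846 and 0.0964) and without any one of several libraries. NTN1 and PMP22 were not called (-0.36 and 0.14). CLDN7, a tight junction claudin on the same list, had 12 counts in all and is no member.

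Among 12 tested kinase and adaptor genes, 3 rose and 0 fell in edgeR (median 0.05), beside 14.7 and 15.4% of all genes, with 2 lower at an unadjusted p under 0.05 and 0 lower in DESeq2 or limma-voom. MINK1, a kinase upstream of JNK, had 79.7, 75.7 and 84 CPM in the lung-recovered libraries, against 72.2, 67.6 and 65.7 CPM in the ITGB4-low libraries (log2 fold change 0.22, SE 0.05, adjusted p in edgeR = 0.00227), and the adaptor CRK had 125, 123 and 129 CPM in the lung-recovered libraries, against 109.7, 109 and 116 CPM in the ITGB4-low libraries (log2 fold change 0.17, SE 0.04, adjusted p in edgeR = 0.00426). DLG4 rose as well (0.34), a call lost without lung-recovered replicate 1 (adjusted p = 0.0548). MAP2K4, MAP2K3, MAPK7, the kinase ERK5, and YWHAE were not called, with -0.16, 0.05, 0.21 and 0.04.

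Of 8 growth regulators, HIC1, FLCN and MNT rose, NCOR1 fell and 4 were not called (median 0.08), beside 14.7% of all genes higher and 15.4% lower. FLCN, folliculin, which acts on mTORC1 at the lysosome, had 19.5, 19.5 and 21.2 CPM in the lung-recovered libraries, against 16.1, 15.9 and 17 CPM in the ITGB4-low libraries (log2 fold change 0.30, SE 0.08, adjusted p in edgeR = 0.00503). NCOR1 fell by 0.20 on the log2 scale (SE 0.05, edgeR adjusted p = 0.00198), and MNT rose by 0.18 (SE 0.05, edgeR adjusted p = 0.00893). LLGL1, a polarity protein, had -0.04 and was not called.

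Of 17 transcription and chromatin genes, 11 were not called, MED9, MNT and KDM6B rose, and ZNF594, CHD3 and NCOR1 fell (median 0.02), near the shares over all genes. DESeq2 and limma-voom each called 3 higher and 2 lower. KDM6B, a histone demethylase, had 0.17 (edgeR adjusted p = 0.0297) and is named after its values were seen. ZNF594, a zinc finger gene, had -0.53, a call lost in DESeq2 (adjusted p = 0.0963), in limma-voom (0.0657), with the replicate block (0.0531), in the 2-group fit (0.0528) and without any one of 5 libraries. Without ITGB4-low replicate 1 its log2 fold change was -0.32 (adjusted p = 0.249). POLR2A and SREBF1 were not called, with 0.02 and -0.04.

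In the list of RNA processing and translation, 1 of 13 genes rose and 1 fell, beside 14.7% of all genes higher and 15.4% lower. DPH1 had 34.3, 32.2 and 35.7 CPM in the lung-recovered libraries, against 30.1, 27.1 and 27.2 CPM in the ITGB4-low libraries (log2 fold change 0.28, SE 0.06, adjusted p in edgeR = 0.00194), and SMG6 had 42.1, 42.3 and 44.8 CPM in the lung-recovered libraries, against 58.7, 52.8 and 50.6 CPM in the ITGB4-low libraries (log2 fold change -0.32, SE 0.06, adjusted p in edgeR = 3.29e-04). Of DPH1's exon bases, 19.5% are shared with other genes on its strand, and 25.4% of SMG6's overlap a gene on the opposite strand. The own part of these 2 genes in their counts is therefore uncertain in every comparison. EIF5A and PRPF8 did not pass the test and had 0.01 and 0.00. For EIF4A1 (0.13), an RNA helicase of translation initiation, 48.6% of the exon bases are shared with other genes on its strand, so its level is uncertain.

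Of 14 mitochondrial genes, C1QBP and ACADVL rose and 0 fell in edgeR (median 0.03), near the 14.7% of all genes called higher, with 0 lower also at an unadjusted p under 0.05 and in DESeq2 and limma-voom. C1QBP, a matrix protein needed for mitochondrial translation, had 272, 275 and 268 CPM in the lung-recovered libraries, against 225, 236 and 229 CPM in the ITGB4-low libraries (log2 fold change 0.24, SE 0.04, adjusted p in edgeR = 1.79e-04). ACADVL, the first enzyme of very long-chain fatty acid oxidation, had 172, 171 and 177 CPM in the lung-recovered libraries, against 141, 157 and 156 CPM in the ITGB4-low libraries (log2 fold change 0.19, SE 0.05, adjusted p in edgeR = 0.00523). Both, named here as the rising members of the list, rose without overlap of libraries. COX10, which is needed to make the heme a of cytochrome oxidase, was not called (0.05).

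Beside the lists in this paragraph, 14.7% of all genes were called higher. Of 16 metabolic genes listed, 12 were tested and 2 were called higher (median 0.11). These were the epidermal lipoxygenases ALOXE3, at 14.3, 14.3 and 14.9 CPM in the lung-recovered libraries, against 11.5, 10.8 and 11.4 CPM in the ITGB4-low libraries (log2 fold change 0.36, SE 0.09, adjusted p in edgeR = 0.00504), and ALOX12B, under 1 CPM in every library, which reached 50 counts only with the lung-recovered libraries and so is counted here with no p. Among 10 ubiquitin and proteasome genes UBB alone rose, at 119, 124 and 117 CPM in the lung-recovered libraries, against 106, 94.3 and 91.4 CPM in the ITGB4-low libraries (log2 fold change 0.31, SE 0.05, adjusted p in edgeR = 2.02e-04), and it is one of 5 members that may share reads with a near-identical copy.

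Of 19 cytoskeleton and motor genes listed, 10 were tested, and SPECC1 rose (0.28, edgeR adjusted p = 0.00143) while MPRIP, which ties myosin phosphatase to actin, fell by 0.11 on the log2 scale (adjusted p = 0.0363, and 0.0769 with replicate number as a block). Over all genes, 14.7% were called higher and 15.4% lower. PFN1, MYH10 and PAFAH1B1, the dynein regulator LIS1, had -0.03, -0.02 and -0.06. Of 11 membrane traffic and autophagy genes 0 passed the edgeR test (median -0.11), 4 were lower at an unadjusted p under 0.05, and limma-voom called 1 lower and DESeq2 0, with GABARAP, an autophagosome protein, at -0.19 (adjusted p = 0.0576). Of 5 genes of DNA repair, telomere and centromere 0 passed it either, nor at an unadjusted p under 0.05 or in DESeq2 or limma-voom (median -0.00), with RPA1 at -0.02 and the topoisomerase gene TOP3A at -0.00.

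Against ITGB4-high, the same lists showed the difference that chose the region in each role. The list medians of ITGB4-low over ITGB4-high were 0.63 for kinases and adaptors, 0.71 for growth regulators, 0.82 for DNA repair, 0.71 for transcription, 0.77 for RNA processing and 0.78 for mitochondrial genes. They were 0.92 for metabolic enzymes, 0.68 for cytoskeleton and motors, 0.83 for membrane traffic, 0.90 for surface molecules and 0.70 for ubiquitin genes, beside 0.77 over all members.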

How the data were processed

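Poly(A) RNA was sequenced in 8 libraries. The deposited values are raw counts per Ensembl gene, made by the authors and not normalized. Per the submitters' processing notes, STAR 2.7.1a and hg38 were used. For the counting program, its strand setting and the annotation, none is named: not given in the sources used here. Of 58336 identifiers, 58216 matched GENCODE 29, which gave symbols, types and hg38 coordinates.

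A single edgeR model (4.0.16, R 4.3.3) held all 8 libraries (filterByExpr, TMM factors from 0.975 to 1.012, 1 term per group, 5 residual degrees of freedom). The quasi-likelihood F test was adjusted by the Benjamini-Hochberg method over 15220 genes, with a call at adjusted p under 0.05. The filter left out 13837 genes with at least 1 count. Standard errors (SE) are the log2 fold change over the square root of F. The scripts were tested on simulated data. Libraries of 1 group differed by more than sampling noise (chi-square over degrees of freedom, 1.60 to 6.58).

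The members, lists and tests were chosen with earlier results of these data known. Named genes are a fixed set of 29, the 8 members with the largest rise and fall in both lung-recovered over ITGB4-low and ITGB4-low over ITGB4-high (10 CPM or more in a group, libraries not overlapping), at most 2 rising and 2 falling members per role list, and those at the bounds. Others are said to be named after their values were seen, and 1 gene of the fixed set is not reported here. Same-numbered libraries did not deviate together (r -0.0748 to 0.0400), so the main fit has no block. Alternatives were RLE and upper-quartile factors, TMM without chromosome 17, DESeq2 1.42.0, limma-voom 3.58.1, no count filter, 2-group fits, a replicate block, each library left out, other member bounds and 5 Mb windows.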

Additional observations from a re-analysis of the deposited data

How the results depend on the processing

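The direction of the member medians in all 3 comparisons was kept under all alternatives run. With each library left out in turn, lung-recovered over ITGB4-low had 29 to 35 members higher and 12 to 17 lower (median log2 fold change 0.03 to 0.04), ITGB4-low over ITGB4-high had 170 to 179 higher and 0 to 3 lower (0.75 to 0.78), and lung-recovered over ITGB4-high had 183 to 187 higher and 0 lower (0.80 to 0.84). Of the 3 members lower in ITGB4-low, 1 was left without ITGB4-high replicate 1 and 0 without ITGB4-low replicate 1 (the cause was not tested). With the replicate number as a block, lung-recovered over ITGB4-low had 34 members higher and 14 lower, and ITGB4-low over ITGB4-high had 177 higher and 1 lower. With members starting below 10 Mb only, 28 members rose and 11 fell in lung-recovered cells, by construction from fewer genes, and the median over ITGB4-high was 0.80. Upper-quartile factors moved the median of ITGB4-low over ITGB4-high to 0.79 (the cause was not tested). With all counts as the denominator the members took 1.41% in lung-recovered, 1.39% in ITGB4-low and 0.789% in ITGB4-high libraries. In 5 Mb windows the lowest median along the arm was 0.74, against 0.68 in 2 Mb windows. Of 186 results of 62 named genes, 169 kept their direction and call under every alternative, and none reversed. The calls in lung-recovered over ITGB4-low of RFLNB, NLGN2, MPRIP, ZNF594, TRPV2, ALOX12B, ADORA2B and DLG4 were each lost under at least 1 alternative. Few reads limit the 59 members under 10 CPM.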
